A study of Homo sapiens with 6 samples.

Results

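The 9 genes described here, RRM1, RRM2, RRM2B, TYMS, TK1, DTYMK, DUT, DCTPP1 and CAD, encode enzymes that make, recycle or clean up the building blocks of DNA. They were chosen by symbol, with earlier results of these data known. They are 9 of the 53826 entries listed for each library, with 1 entry per symbol. The RNA-seq libraries come from PK-1 and Panc-1, human cell lines of pancreatic ductal adenocarcinoma. Each line has a control, a library of cells given RARγi-1, which is LY2955303, and a library of cells given RARγi-2, which is MM11253, both for 24 h. The 2 compounds are antagonists of retinoic acid receptor γ (RARγ). Each of the 6 conditions has 1 library. The labels give no genotype, dose or vehicle for these libraries, and a treatment entry on both RARγi-2 libraries reads RARγi-1, so the libraries were assigned by their titles. The question of the comparison is how each inhibitor changed the expression of these genes against the control of the same cell line.

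Cells need the deoxynucleotides dATP, dGTP, dCTP and dTTP in balanced amounts when they copy their DNA, and they hold only a small store of them. Ribonucleotide reductase makes deoxynucleotides from ribonucleotides. Its large subunit is encoded by RRM1, and its small subunit by RRM2 in dividing cells or by RRM2B, which is known as the p53-inducible small subunit and supplies deoxynucleotides outside S phase. Thymidylate has a route of its own: TYMS makes it from dUMP, TK1 recovers it from thymidine and DTYMK carries both products on towards dTTP. DUT breaks down dUTP, which keeps uracil out of DNA and yields the dUMP that TYMS uses. DCTPP1 removes dCTP and modified dCTP, and CAD carries the first steps of pyrimidine synthesis. In pancreatic cancer these enzymes are also known as partners and targets of drugs, since gemcitabine blocks ribonucleotide reductase and fluorouracil blocks thymidylate synthase.

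The deposited values are TPM, transcript levels scaled by gene length and library size, on a log2 scale, with 1 TPM as the lowest value listed. TPM keeps no read number, so the depth behind each value is unknown and counting error was not computed. Fold changes are log2 of (TPM + 1) in the treated over (TPM + 1) in the control library, which understates the change of low genes. No condition was repeated, which leaves every difference without a replicate check and without a test. As a yardstick, each change was read beside all entries that reached 5 TPM in 1 or more of the line's libraries, which are 11268 in PK-1 and 11056 in Panc-1. A robust standard deviation of a fold change, taken from how far the libraries of the 2 inhibitors lie apart and thus holding real differences between them too, was 0.41 on the log2 scale for PK-1 and 0.32 for Panc-1. It is called the fold change spread. Rescaling by median ratios would shift log2 fold changes with RARγi-1 by -0.11 in PK-1 and by -0.09 in Panc-1, and the others by at most 0.05 in size. All 5 ductal epithelial keratin and EPCAM markers were above 1 TPM in both lines, with KRT7 at 4.19 TPM or lower in Panc-1, and their summed level ran from 13237 to 22328 TPM in PK-1 and from 1484 to 8418 TPM in Panc-1, highest in the control of each line. Markers of leukocytes (PTPRC) and endothelium (PECAM1 and VWF) were at the 1 TPM floor throughout. Of the acinar markers, CPA1 and CELA3A were at the floor, and PRSS1 reached 21.2 TPM in PK-1 RARγi-2. The part of these marker levels in the results was not tested.

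The promoter windows that go with these genes are shown first, because the members that were lowest after treatment are genes whose promoters are commonly searched for the letters bound by E2F factors and NF-Y. RefSeq windows (GRCh38.p14), running from 250 bases before to 50 bases after a start site, were searched for 8 of the 9 members, 13 windows in all. The E2F-type letters TTCCCGC, the variant with the letters TTGGCGC, the variant with the letters TTGCCGC and the variant with the letters TTCGCGC were searched on both strands. One or more were present in 5 of these 13 windows, 1 each for RRM1, RRM2, TYMS, TK1 and DUT, and in 13.0% of all 35116 windows. CCAAT, the letters of the NF-Y box, stood in 6 of the 13 windows and in 34.6% of all windows. TTTGAA, the letters of the cell cycle homology region, stood in 2 of the 13, for RRM1 and DUT, and in 15.2% of all windows. CCAAT on one strand can share letters with TTGGCGC on the other; the matches printed here do not. The lines below give 30 bases around 1 E2F-type match of each of the 5 genes and around 1 CCAAT of RRM2, TK1 and DTYMK, read on the strand of the gene, with the matched letters in capitals.
RRM2, E2F-type, chr2:10122365-10122394: ggggcccgcgcGCGCCAAggccgccgagac
RRM1, E2F-type, chr11:4094451-4094480: caagaaaaacgTTCCCGCcggttaggtttt
TYMS, E2F-type, chr18:657603-657632: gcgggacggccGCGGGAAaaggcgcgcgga
TK1, E2F-type, chr17:78187046-78187075: aagcggtcggcGCGGGAAccaggggcttac
DUT, E2F-type, chr15:48332144-48332173: gggcggggctgGCGGGAAatttcggttttg
RRM2, CCAAT, chr2:10122661-10122690: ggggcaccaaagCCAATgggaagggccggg
TK1, CCAAT, chr17:78187081-78187110: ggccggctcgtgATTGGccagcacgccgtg
DTYMK, CCAAT, chr2:241686822-241686851: tgttgacgccggCCAATgggagctccggaa
The matches lay close to the start in TK1 (12 bases before it), TYMS (39) and DUT (42), and farther away in RRM2 (192) and RRM1 (223). RRM2 had 3 CCAAT boxes before its other start site, at 123, 93 and 66 bases, and TK1 had 2 in 1 window, at 77 and 46 bases. CAD and DTYMK showed no E2F-type match in their single windows. The window of DCTPP1 had none either, but its start site lies inside the gene's RefSeq span, so it may not hold the main start. A window without a match says only that these letters are not in it. The 5 genes with an E2F-type match are also the 5 members that were more than 2-fold lower in all 4 comparisons, as described below. This was noticed with both results in view. The genes did not have equal chances of a match. RRM2, TK1 and DUT had more than 1 window, CAD, DTYMK and DCTPP1 had a single window each, and no window of RRM2B was searched. A match is a description of the letters and not a bound site.

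In all 4 comparisons, 8 of the 9 genes were lower than in the control, and RRM2B alone was higher. Among all tested entries, the share below the control in PK-1 was 40.4% (RARγi-1) and 50.2% (RARγi-2), against 44.3% and 51.7% in Panc-1. In PK-1 cells treated with RARγi-1, 8 members were lower by more than 2-fold, against 5.67% of all tested entries, and with RARγi-2 again 8, against 14.6%. In Panc-1 cells the numbers were 5 with RARγi-1, against 7.11% of entries, and 6 with RARγi-2, against 13.0%. Members higher by more than 2-fold numbered 0 in each comparison, where 10.7% and 13.9% of entries were past that limit in PK-1, with 8.58% and 9.88% in Panc-1. The median log2 fold change of the 9 genes in PK-1 was -1.77 (RARγi-1) and -2.13 (RARγi-2), with -1.24 and -1.51 for Panc-1, while the median over all tested entries lay between -0.03 and 0.15. The members lower by more than 2-fold in all 4 comparisons were 5, RRM1, RRM2, TYMS, TK1 and DUT, against 2.64% of the 9912 entries tested in both lines. The 2 comparisons within a cell line share the control library, so they are not separate evidence. These are bulk samples, in which fewer cells in S phase and less of a transcript per cell cannot be told apart.

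**Figure D1:**
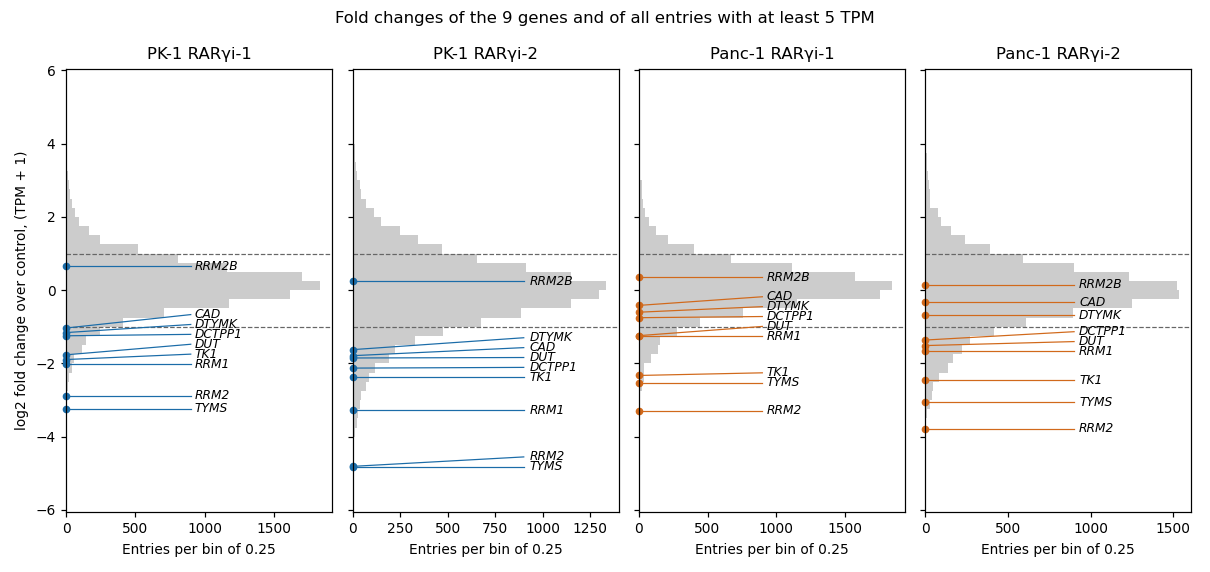
Log2 fold change over control (vertical axis, TPM + 1) of the 9 genes, drawn as points with names, beside the histogram of all entries with at least 5 TPM (horizontal axis, entries per bin of 0.25) in each comparison. Dashed lines mark 2-fold; RRM2 and TYMS sit in the lowest tail in each panel, and RRM2B sits above 0.

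RRM2 (Entrez gene 6241; chromosome 2, 10122568 to 10211010 in GRCh38.p14, as for the loci that follow), the small subunit of dividing cells, was among the lowest of all entries. It stood at 227 TPM in the PK-1 control, 29.9 TPM with RARγi-1 and, with RARγi-2, 7.14 TPM. In Panc-1 it stood at 350.3 TPM in the control, 34.9 TPM with RARγi-1 and, with RARγi-2, 24.5 TPM. Both controls lay far above the treated libraries of either line. What remained in PK-1 was 13.1% of the control with RARγi-1 and 3.14% with RARγi-2, compared with 9.96% and 6.99% for Panc-1. On the log2 scale RRM2 changed by -2.89 and -4.81 (PK-1) and by -3.29 and -3.79 (Panc-1). Of the tested entries in PK-1, 8 had a lower fold change with RARγi-1 and 1 with RARγi-2, and of those in Panc-1 the numbers were 10 and 9. Because of the floor of 1 TPM, an entry with a low control level cannot fall this far. These ranks therefore hold only among entries with control levels high enough to do so.

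RRM1 (6240; chromosome 11, 4094685 to 4138932), the large subunit, was lower too, and by less than RRM2. Its level was 260.2 TPM in the PK-1 control, 63.5 TPM with RARγi-1 and, with RARγi-2, 26.0 TPM. In Panc-1 it was 182 TPM, 75.3 TPM and 56.3 TPM in the same order. RRM1 thereby changed by -2.02 and -3.27 (log2) in PK-1, as against -1.26 and -1.67 for Panc-1. PK-1 thus began with more RRM1 than Panc-1 and ended with less under both inhibitors.

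RRM2B (50484), the alternative small subunit, was the one member that was not lower. It was listed at 10.9 TPM in the PK-1 control, 17.8 TPM under RARγi-1 and 13.1 TPM under RARγi-2, and at 11.05, 14.4 and 12.3 TPM in Panc-1. The log2 fold change of 0.66 with RARγi-1 in PK-1 was past the fold change spread of that line, and that of 0.35 with RARγi-1 in Panc-1 was just past it. The values with RARγi-2, 0.24 and 0.14, lay within it. After rescaling, the value for Panc-1 RARγi-1 was within the spread as well, at 0.27. Among tested entries, 59.9% to 78.8% had a lower fold change than RRM2B, with the highest share for RARγi-1 in PK-1. Since RRM2B is known as a p53 target, 12 other p53 targets were followed. In PK-1, 3 (RARγi-1) and 5 (RARγi-2) of the 10 tested were higher by more than 2-fold, and in Panc-1 it was 2 and 2 of the 11 tested. Over all entries the shares were 10.7%, 13.9%, 8.58% and 9.88%, so the Panc-1 counts stand about 1 gene above them. The medians of the list were 0.55, 0.93, 0.37 and 0.33 in that order. FAS alone was lower by more than 2-fold, in PK-1 with RARγi-2. CDKN1A, the gene of the CDK inhibitor p21, was higher in all 4 comparisons, with a mean log2 fold change of 2.42. FAS, a death receptor gene, had the lowest mean, at -0.60. In Panc-1 it was listed at 1.89 TPM or lower and was not tested, so the Panc-1 part of that mean is weak.

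Because RRM2 was lower and RRM2B was not, the make-up of the small subunit transcripts shifted. TPM values are scaled per transcript length, so levels of different genes can be set side by side. RRM2B made up 4.58% of the summed RRM2 and RRM2B level in the PK-1 control, 37.3% with RARγi-1 and 64.7% with RARγi-2. In Panc-1 the shares were 3.06%, 29.2% and 33.4%. RRM2B was thus the more abundant small subunit transcript in a single library, PK-1 RARγi-2, at 1.83 times the level of RRM2. The ratio of RRM2 to RRM1 went from 0.87 in the PK-1 control to 0.47 and 0.27, and from 1.93 in the Panc-1 control to 0.46 and 0.43. With both small subunits summed, the ratio to RRM1 moved less in PK-1, from 0.92 to 0.75 and 0.78, than in Panc-1, from 1.99 to 0.65 and 0.65. In all, the small subunit transcripts came to 238 TPM in the PK-1 control against 47.7 and 20.2 TPM after treatment, and to 361 TPM against 49.3 and 36.8 TPM in Panc-1.

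**Figure D2:**
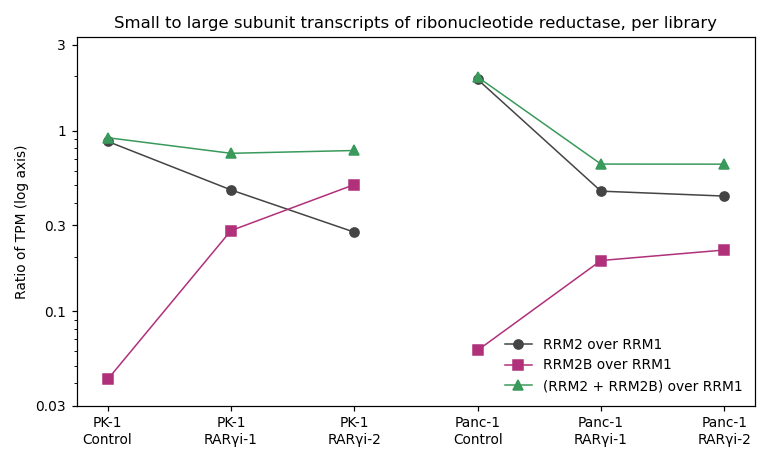
Ratio of small to large subunit transcripts of ribonucleotide reductase (vertical log axis, ratio of TPM) in each of the 6 libraries, 1 point per library, with lines joining the libraries of a cell line. RRM2 over RRM1 is highest in the controls, at 0.87 and 1.93, and RRM2B over RRM1 is lowest there, at 0.04 and 0.06, with the lines crossing in PK-1 RARγi-2.

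TYMS (7298; chromosome 18, 657653 to 673578), thymidylate synthase, was lowered about as far as RRM2 in PK-1. Its level was 231 TPM in the PK-1 control, 23.6 TPM under RARγi-1 and 7.21 TPM under RARγi-2. In Panc-1 it was 397 TPM in the control, 68.0 TPM under RARγi-1 and 46.6 TPM under RARγi-2. TYMS changed by -3.24 and -4.82 (log2) in PK-1, and no other tested entry was lower than TYMS with RARγi-2 there. RRM2 was close to it, at -4.81, and entries with low control levels could not fall this far because of the floor. In Panc-1 its log2 fold changes were -2.53 and -3.06, with 38 and 43 entries lower. TYMS shares exonic bases with 2 genes on the opposite strand, ENOSF1 and TYMSOS, and the library kit keeps strand but strand use in the counting is not given in the sources used here. ENOSF1 was listed at 47.0, 31.1 and 27.4 TPM in PK-1 and at 16.9, 23.9 and 18.9 TPM in Panc-1, below TYMS in each library except those of PK-1 under treatment, where reads of the 2 genes cannot be told apart if strand was not used. TYMSOS was listed at 8.03 TPM or lower. GENCODE also places AC007240.1 on exons of RRM2 on the same strand, and RRM1-AS1 and AC023355.1 opposite RRM1 and DUT; they were matched to no entry here.

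TK1 (7083; chromosome 17, 78174079 to 78187204), the thymidine kinase of dividing cells, had the highest level of the 9 genes in the PK-1 control. In PK-1 it was listed at 439.6, 118 and 83.7 TPM in the order control, RARγi-1 and RARγi-2, and in Panc-1 at 224, 43.8 and 40.1 TPM. Its log2 fold changes were -1.89, -2.38, -2.33 and -2.45 in the order of the comparisons, the narrowest range among the 5 genes that were more than 2-fold lower throughout. TYMS and TK1 stand for the synthesis and the recovery of thymidylate, and the ratio of TYMS to TK1 was 0.53 in the PK-1 control, 0.20 with RARγi-1 and 0.09 with RARγi-2, against 1.77, 1.55 and 1.16 in Panc-1. The ratio was below that of the control in all 4 treated libraries, and the decrease as a share of the control was larger in PK-1.

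DTYMK (1841; chromosome 2, 241675747 to 241686815), the kinase on which both thymidylate routes meet, was reduced far less. It was listed at 92.7, 41.0 and 29.4 TPM in PK-1, with log2 fold changes of -1.16 and -1.62. In Panc-1 it was listed at 219, 144 and 136 TPM, with log2 fold changes of -0.60 and -0.69, both past the fold change spread but short of 2-fold. Its level in either treated Panc-1 library was above that of the PK-1 control.

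DUT (1854; chromosome 15, 48331095 to 48343373), the dUTPase, was lower by more than 2-fold in each comparison and nearly alike with both inhibitors. It was listed at 109, 31.3 and 29.4 TPM in PK-1 and at 139, 58.3 and 48.1 TPM in Panc-1. This gave log2 fold changes of -1.77 and -1.85 for PK-1, as against -1.24 and -1.51 for Panc-1. DUT has nuclear and mitochondrial forms from separate start sites, which gene-level TPM does not separate.

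DCTPP1 (79077; chromosome 16, 30423615 to 30430030), the dCTP pyrophosphatase, stood at 126, 52.6 and 28.1 TPM in PK-1 and at 203, 120.4 and 78.5 TPM in Panc-1. Its log2 fold changes were -1.25 and -2.13 (PK-1), -0.75 and -1.36 (Panc-1), the value for Panc-1 RARγi-1 falling short of 2-fold. It overlaps ZNF771 on the opposite strand, which was listed at 16.3 TPM or lower.

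CAD (790; chromosome 2, 27217369 to 27243943), which opens pyrimidine synthesis, was the member with the smallest decrease in Panc-1. It was listed at 38.6, 18.4 and 10.5 TPM in PK-1, with log2 fold changes of -1.03 and -1.79. In Panc-1 it was listed at 53.5, 39.8 and 42.1 TPM, with log2 fold changes of -0.42 and -0.34, just past the fold change spread. With RARγi-2 in Panc-1, 33.4% of tested entries were lower than CAD. In PK-1 with RARγi-1, CAD is the member nearest to the 2-fold limit, with 5.36% of entries lower than it.

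**Figure D3:**
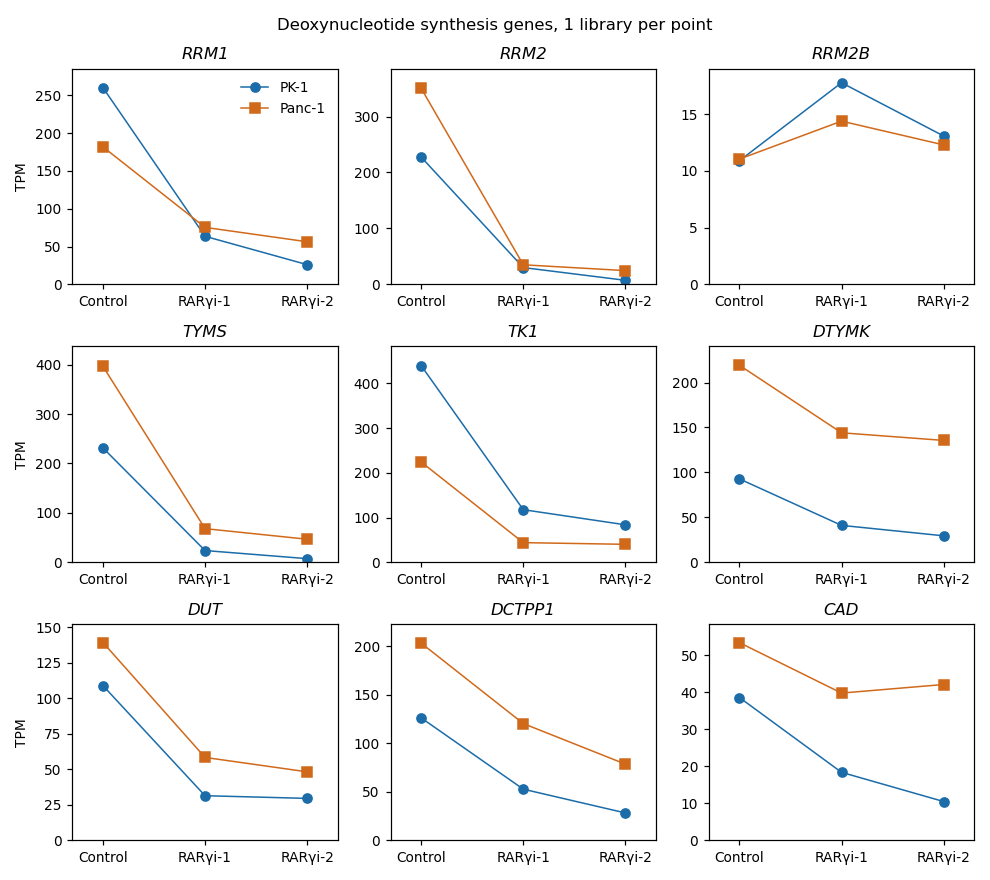
TPM (vertical axis, from 0, own scale per gene) of the 9 genes in the control, RARγi-1 and RARγi-2 libraries of PK-1 (blue circles) and Panc-1 (orange squares), 1 library per point, joined within a line. The control is the highest point of each line except for RRM2B, where it is the lowest.

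The summed level of the 9 genes was 1536 TPM in the PK-1 control, 396 TPM under RARγi-1 and 235 TPM under RARγi-2, so 25.8% and 15.3% of the control remained. In Panc-1 it was 1779 TPM, 599 TPM and 484 TPM, and 33.7% and 27.2% remained. In the PK-1 control the order of the levels from the highest was TK1, RRM1, TYMS, RRM2, DCTPP1, DUT, DTYMK, CAD and RRM2B, and in the Panc-1 control it was TYMS, RRM2, TK1, DTYMK, DCTPP1, RRM1, DUT, CAD and RRM2B. TYMS and RRM2 in PK-1, and TK1 and DTYMK in Panc-1, were neighbours in these orders that differed by little. Between the controls, DTYMK was higher in Panc-1 by 1.23 (log2) and was the only member past 2-fold, against 17.3% of entries, while TK1 was lower in Panc-1 by a log2 ratio of -0.97, where 16.1% of entries were lower by more than 2-fold.

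Set beside each other without a control, the RARγi-2 library was below the RARγi-1 library for 9 of 9 members in PK-1 and for 8 of 9 in Panc-1, and for 65.5% and 64.7% of all tested entries. The doses of these libraries are not stated, so the values describe 2 treatments and do not rank 2 compounds. The members lower by more than 2-fold with RARγi-2 than with RARγi-1 in PK-1 numbered 3, RRM2, TYMS and RRM1, at log2 ratios of -1.93, -1.59 and -1.26, against 5.19% of entries, where 1.49% of entries were higher by more than 2-fold. In Panc-1 the number was 0, against 2.41% lower and 0.778% higher among entries, and the lowest ratio was that of DCTPP1, at -0.61. DUT in PK-1, at -0.09, and CAD in Panc-1, at 0.08, were nearly level; after rescaling, DUT in PK-1 stood at 0.06.

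The cell lines have separate controls. Averaged over both inhibitors, the log2 fold change of TYMS was -4.03 in PK-1 and -2.79 in Panc-1, that of RRM1 was -2.65 and -1.47, and that of CAD was -1.41 and -0.38. RRM2, at -3.85 and -3.54, and TK1, at -2.14 and -2.39, differed by less between the lines. TK1 was the member that was lowered further in Panc-1. With 1 library per condition these differences between lines were not tested.

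**Figure D4:**
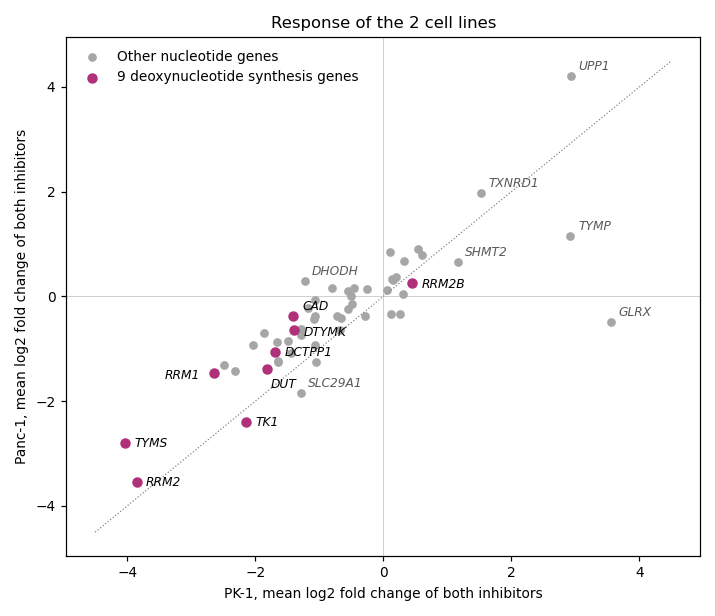
Mean log2 fold change of both inhibitors in PK-1 (horizontal axis) and in Panc-1 (vertical axis) for the 9 genes (purple) and the other nucleotide genes with at least 5 TPM in both lines (grey), with equality dotted. RRM2 and TYMS are the lowest points in both lines, UPP1 is the highest in Panc-1, and GLRX lies apart, higher in PK-1 and lower in Panc-1.

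The surrounding pathway was followed with 7 lists holding 52 other genes of nucleotide metabolism, of which 48 reached 5 TPM in PK-1 and 48 in Panc-1. In PK-1, 10 of these were lower and 4 higher by more than 2-fold with RARγi-1, and 24 lower and 6 higher with RARγi-2. In Panc-1, 5 were lower and 4 higher with RARγi-1, and 12 lower and 3 higher with RARγi-2. Over all entries, 5.67%, 14.6%, 7.11% and 13.0% were lower and 10.7%, 13.9%, 8.58% and 9.88% were higher in the order of the comparisons, so the counts of higher genes and the count of lower genes with RARγi-1 in Panc-1 are near the share over all entries. Their medians, -0.44, -0.84, -0.15 and -0.32 in the same order, were nearer to 0 than those of the 9 members in each comparison.

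Among 3 folate enzymes that serve thymidylate synthesis, 2 were lower by more than 2-fold in all 4 comparisons, SHMT1 and MTHFD1. They were the only such genes among the 47 genes of the 7 lists that were tested in both lines. Over all 9912 entries tested in both lines the share was 2.64%, so the count over the 7 lists is near it. SHMT1 was listed at 71.1, 18.4 and 9.80 TPM in PK-1 and at 29.4, 13.7 and 7.83 TPM in Panc-1. MTHFD1 was listed at 190.1, 44.1 and 24.8 TPM in PK-1 and at 117, 52.5 and 41.6 TPM in Panc-1. SHMT1 and MTHFD1, which supply one-carbon units in the cytosol, had mean log2 fold changes of -1.87 and -1.89. SHMT2, the mitochondrial counterpart of SHMT1, was higher than control in each library, with a mean log2 fold change of 0.91 and one value past 2-fold, 1.46 with RARγi-2 in PK-1. The list had medians of -1.89, -2.74, -1.05 and -1.46.

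The other genes of pyrimidine synthesis and those of the purine route had lower medians in PK-1 than in Panc-1 with each inhibitor, a difference that was not tested. Over all entries, 5.67% and 14.6% were lower by more than 2-fold in PK-1 and 7.11% and 13.0% were in Panc-1. Of 7 pyrimidine genes, in PK-1 1 was lower by more than 2-fold with RARγi-1 and 5 were with RARγi-2, against 1 and 1 in Panc-1, with medians of -0.79 and -1.59 against -0.16 and -0.68. CTPS1, which makes CTP, had the lowest mean, at -1.26, and CMPK1, which phosphorylates CMP and UMP, the highest, at -0.06. Of 15 purine genes, 4 and 10 were lower by more than 2-fold in PK-1, against 1 and 4 in Panc-1, with medians of -0.65 and -1.40 against -0.22 and -0.35. PFAS, an enzyme of purine ring assembly, had the lowest mean, at -1.48, and GUK1, guanylate kinase, the highest, at 0.24. The pool sanitation list had 1 and 2 of 4 genes lower by more than 2-fold in PK-1, against 0 and 1 in Panc-1, with medians of -0.61, -0.97, -0.45 and -0.55. NUDT1, which clears oxidised purine nucleotides, had the lowest mean there, at -1.001, and DNPH1, a hydrolase of modified deoxynucleotides, the highest, at -0.04.

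**Figure D5:**
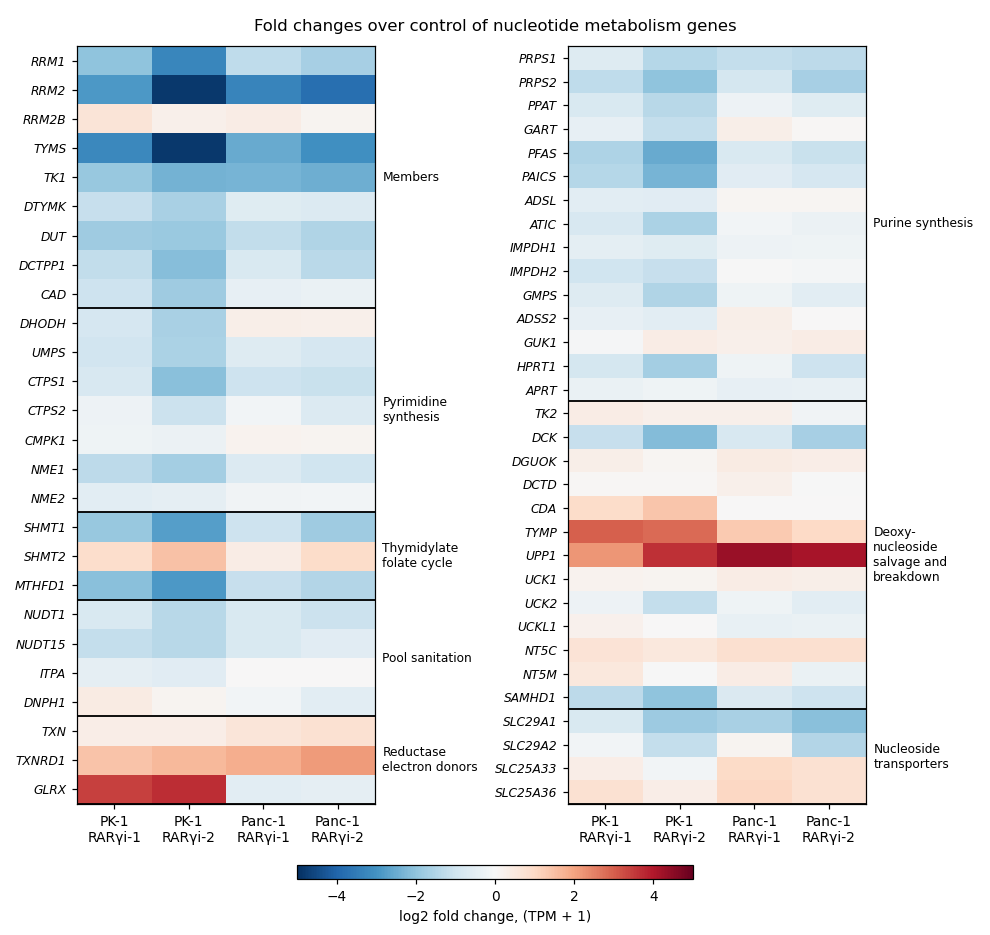
Log2 fold change over control (colour, TPM + 1, blue lower and red higher, scale from -5 to 5) of the 9 genes and of the other nucleotide metabolism genes that reached 5 TPM in at least 1 line, by list, in the 4 comparisons. RRM2 and TYMS with RARγi-2 in PK-1 are the darkest blue cells, RRM2B is pale red, and UPP1, TYMP and TXNRD1 are red in all 4 columns.

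A pair of genes of nucleoside breakdown were higher. UPP1, uridine phosphorylase, was listed at 127, 599 and 1598 TPM in PK-1 and at 129, 2559.7 and 2239.7 TPM in Panc-1, with the highest mean log2 fold change of its list, at 3.57. TYMP, thymidine phosphorylase, which splits the substrate of TK1, was listed at 13.0, 111 and 99.6 TPM in PK-1 and at 64.1, 162 and 129 TPM in Panc-1. Its log2 fold change with RARγi-2 in Panc-1, 1.001, is at the 2-fold limit. Higher in all 4 comparisons by more than 2-fold were UPP1 and TYMP, 2 of the 11 genes of salvage and breakdown tested in both lines, against 3.29% of such entries. By comparison, in this list 2 and 3 of the 12 tested genes were lower and 2 and 3 higher in PK-1, and 0 and 2 were lower and 2 and 2 higher in Panc-1, counts that can be read beside 5.67% and 14.6% lower and 10.7% and 13.9% higher over all entries in PK-1 and 7.11% and 13.0% lower and 8.58% and 9.88% higher in Panc-1. The list had medians of 0.25, 0.12, 0.33 and -0.10 in the order of the comparisons.

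DCK, deoxycytidine kinase, which takes up deoxycytidine into the nucleotide pool, had the lowest mean of the salvage list, at -1.44. It was listed at 27.2, 11.8 and 5.30 TPM in PK-1 and at 18.6, 10.2 and 5.25 TPM in Panc-1. SLC29A1, the main carrier that brings nucleosides into the cell, was listed at 83.3, 48.4 and 23.0 TPM in PK-1 and at 283, 92.4 and 65.3 TPM in Panc-1, with a mean log2 fold change of -1.57. Of the 6 transporter genes, SLC28A1 and SLC28A3, named after their values were seen, were at the floor, and among the 4 tested, 0 and 2 were lower by more than 2-fold in PK-1, against 1 and 2 in Panc-1, with 1 higher, SLC25A36, with RARγi-1 in Panc-1, at a log2 fold change of 1.025. The transporter medians were 0.09, -0.67, 0.55 and -0.35. For comparison, 5.67%, 14.6%, 7.11% and 13.0% of all entries were lower by more than 2-fold, in the order of the comparisons. The share higher by that much with RARγi-1 in Panc-1 was 8.58%.

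Of the 3 genes that hand electrons to ribonucleotide reductase, TXNRD1 and TXN were above the control in each comparison, and GLRX was above it in PK-1 and below it in Panc-1. TXNRD1, thioredoxin reductase, was higher by more than 2-fold in all 4 comparisons, at 298, 800.3 and 928 TPM in PK-1 and at 168, 594 and 737 TPM in Panc-1. TXN, thioredoxin, had log2 fold changes of 0.33 and 0.32 in PK-1, within the fold change spread, and of 0.59 and 0.76 in Panc-1, past it. GLRX, glutaredoxin, named after its values were seen, was listed at 16.8, 189 and 230.3 TPM in PK-1 and at 18.5, 12.4 and 13.4 TPM in Panc-1, where its log2 fold changes of -0.54 and -0.44 were past the fold change spread. The list of 3 genes had 2 and 2 genes higher by more than 2-fold in PK-1, against 1 and 1 in Panc-1, with medians of 1.42 and 1.64 against 0.59 and 0.76. The shares of all entries higher by that much were 10.7%, 13.9%, 8.58% and 9.88% in the order of the comparisons.

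Other genes of DNA replication were lower in the same libraries. A reference list of 12 S phase genes was also chosen with earlier results of these data known. Of these genes, 11 were lower by more than 2-fold in all 4 comparisons. The share was 2.64% over the 9912 entries tested in both lines. Among the 11 were PCNA, the sliding clamp, the helicase genes MCM2 to MCM7 and E2F1. The medians of this list, -2.07, -3.01, -1.92 and -2.21 in the order of the comparisons, were below those of the 9 members in each comparison. MCM4 had the lowest mean, at -2.94, which is less of a decrease than that of RRM2 and TYMS, and CDC6, which loads the helicase, had the highest, at 0.03.

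The entries whose 4 log2 fold changes were nearest to those of RRM2, by Euclidean distance among the 10629 entries that reached 10 TPM in any library, were FAM111B at a distance of 0.58, LMNB1 at 0.98, TYMS at 1.11, UHRF1 at 1.27 and ANLN at 1.44. FAM111B had log2 fold changes of -2.96 and -4.48 in PK-1, and its value in Panc-1, -3.31, is a lower limit of the decrease, since it was at the floor in both treated libraries. RRM2B had its nearest entries at shorter distances, MIR5047 (Entrez gene 100616408) at 0.07, IGF2BP3 at 0.08, ANKIB1 at 0.12, MLF1 at 0.13 and FHL1 at 0.14. The distances of the 2 genes cannot be compared. RRM2B had 59.9% to 78.8% of tested entries below it, where entries lie close together, and RRM2 was in the sparse lowest tail.

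None of the 12 listed pseudogene entries of these genes, such as those of RRM2, DUT and TYMS, was above the floor in any library.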

How the data were processed

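The authors deposited 1 table per library with log2 values of TPM for 53826 entries with a symbol and an Entrez ID each. The floor of 1 TPM was read from the values, of which 74.6% to 75.6% per library lie at it. The libraries were made with a stranded mRNA kit. The submitters' processing notes name the genome build hg38; the aligner, the counting and the annotation are not given in the sources used here. TPM keeps no depth, so precision by read number is unknown.

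TPM were recovered as powers of 2, and (TPM + 1) of a treated library was divided by (TPM + 1) of its line's control and put on a log2 scale (Python 3.11.15, numpy 2.4.6, pandas 2.3.3). No test was run, because there is 1 library per condition. The fold change spread is the median absolute deviation, times 1.4826, of the RARγi-2 over RARγi-1 log2 ratio. Calls were checked only on simulated libraries, with changes well past 2-fold and less scatter than the fold change spread. That check cannot speak to calls near 2-fold, and how far these hold in the deposited libraries was not tested. Members, lists and tests were chosen with earlier results of these data known. Named besides the members are genes past 2-fold in 1 direction in all 4 comparisons, the lowest and highest mean of each list and the 5 entries nearest to RRM2 and RRM2B. Some genes of the lists are not reported here and were left out of the list counts. ADSS2 is listed as ADSS and was matched by Entrez ID. Loci and promoter windows are from RefSeq (GRCh38.p14), overlaps from GENCODE 29. Alternatives were other pseudocounts (0 and 0.1), rescaling by median ratios, thresholds of 1.5-fold and 3-fold and other minimum levels (none and 20 TPM).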

Additional observations from a re-analysis of the deposited data

Results flagged for a closer look

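In 10 of the 77 genes, members and lists together, that were tested in both lines, both PK-1 libraries moved one way against their control and both Panc-1 libraries the other way; none of the 9 members was among them. Among all 9912 entries tested in both lines, 13.0% did so, and the sign alone was used. GLRX was the only 1 of the 10 whose 4 log2 fold changes all lay past the fold change spread, so the others include values near 0. Whether the lines differ was not tested, with 1 library per condition. In 7 genes the change was downward in PK-1, and in 3 it was upward there. The mean log2 fold change in PK-1 minus that in Panc-1 was 4.05 for GLRX (glutaredoxin), which is the widest gap, -1.52 for DHODH, a step of pyrimidine synthesis, and -1.12 for CDC6. Among purine genes it was -0.97 for GART, -0.65 for ADSL and -0.63 for ADSS2. The others were DNPH1 at 0.60, ITPA at -0.52, UCKL1 at 0.46 and CMPK1 at -0.40.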

How the results depend on the processing

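All 108 alternative values of member fold changes and 12 of member medians, from other pseudocounts and rescaling, kept their direction and moved by at most 0.18 (log2). No setting besides the fold threshold moved a count of members past it. Of 54 alternative ratios of RARγi-2 to RARγi-1, DUT in PK-1 and DTYMK in Panc-1 (to 0.00) lost their sign after rescaling. In the order PK-1 RARγi-1, PK-1 RARγi-2, Panc-1 RARγi-1, Panc-1 RARγi-2, the share of all entries lower was 13.2%, 25.6%, 15.3% and 23.5% at 1.5-fold and 1.85%, 6.76%, 2.7% and 6.02% at 3-fold, and the share higher was 24.2%, 24.9%, 20.8% and 20.3% at 1.5-fold and 3.33%, 5.96%, 2.59% and 3.59% at 3-fold. In the same order, 5, 8, 3 and 4 members were lower at 3-fold, and 8, 8, 7 and 7 at 1.5-fold. At 1.5-fold, 1 member, RRM2B, was higher in PK-1 RARγi-1. Of the other pathway genes, 20, 25, 13 and 17 were lower at 1.5-fold and 2, 13, 1 and 4 at 3-fold, in the above order. Those higher numbered 8, 6, 7 and 8 at 1.5-fold and 3, 4, 2 and 2 at 3-fold. Rescaling took TYMP in Panc-1 RARγi-2 and SLC25A36 in Panc-1 RARγi-1 under 2-fold. Each member has 1 entry, so summing repeated entries was not run. No paired analysis was possible because each condition has 1 library, and for the same reason none could be left out. Depth is unknown and sets no stated limit.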
